A study of Mus musculus with 12 samples.

Results

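The middle step of network formation was followed in MB114 cells, a murine line started from the endothelium of small vessels, by comparing cultures at 15 h and at 5 h after plating on Matrigel. Matrigel is a tumour-derived extract of basement membrane, rich in laminin and type IV collagen, on which endothelial cells draw together into cords and capillary-like networks. The comparison takes the 3 arrays labelled 15hr against the 3 labelled 5hr, 6 of the 12 arrays of the series, and uses the biological replicate numbers 1, 2 and 3 as pairs. The other 6 arrays are of cultures harvested at 1 h and 25 h, and they entered the model to estimate the spread and to set the later interval beside this one. All cultures were of the same line, with no other treatment named in the labels, split 1 day before plating and differing by the hours spent on the gel. The cells are 1 line in a simplified culture with no blood flow, and because every culture analysed was on the gel, the effect of time in culture and that of Matrigel cannot be told apart. Total RNA was labelled and hybridised to 1 Affymetrix mouse array per culture, and the values are MAS5 signals, intensities that summarise the probes of a transcript.

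Endothelial cells on Matrigel attach and spread first, then align, elongate and pull the gel into cords that join into a network. In vessels, sprouting is led by tip cells that answer VEGF, while the stalk cells behind them divide, lay down matrix and later become quiescent. The 5 h and 15 h cultures stand on either side of the middle part of that course, and the question asked of them was which transcripts change over those 10 h.

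The trimmed means of the 6 deposited arrays were 500.1 to 500.2, a common scale. Their median signals were 154 to 177 at 5 h and 187 to 203 at 15 h. Arrays have no read depth, so it is their number that limits the precision. Replicates correlated at r = 0.920 to 0.940 within 5 h and 0.907 to 0.959 within 15 h, against 0.814 to 0.906 between the times. The arrays numbered 1 stood apart in their control probe sets: the hybridisation spike-ins had a geometric mean of 675 and 786 there against 248 to 331 on the other 4 arrays, and the 18S rRNA control read 2558 and 1194 against 107 to 162. Whether these control values bear on any gene was not tested, and counts without the arrays numbered 1 are given with the results.

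Of 12393 genes with a probe set, 7379 were bright enough to test: their signal was 183.1 (the median over every probe set and array) or more on 3 or more of the 12 arrays. A gene was called changed at an adjusted p under 0.05 (limma's moderated test on log2 signal with the replicate number as a block, 2-sided, Benjamini-Hochberg over the 7379 genes). At 15 h, 2415 of them were called (32.7%), 1429 higher (19.4%) and 986 lower (13.4%). Those shares are the background for every list below. The 3 and 3 arrays did not overlap for 2612 genes (35.4%). An exact permutation test of 3 against 3 that ignores the pairing could not go below p = 0.1. One kept within the pairs has a higher floor. All 3 pairs moved the same way for 2392 of the 2415. Folds are given as 2 raised to the mean of the 3 paired log2 differences, and errors as the fit's standard error (SE, n = 3 pairs). The labels call the replicates biological and do not say how the cultures were kept apart. The p-values therefore measure only the spread left among these samples, over all 12 arrays, once time and replicate number are taken out. The change reached 2-fold for 605 called genes (422 higher and 183 lower) and 4-fold for 82 (64 higher and 18 lower). The median gene stood 0.07 higher on the log2 scale, and centring each array on its median lowered every change by 0.21. Centred, 747 genes were higher and 1585 lower, so the share of rises among calls went from 59.2% to 32.0%, while no called gene turned direction. The split between rises and falls therefore depends on the scaling, and small changes near the median gene are less firm than large ones. Without the replicate block 644 were higher and 424 lower, without all arrays numbered 1 these were 838 and 501, and without the 15 h array numbered 3 they were 908 and 641.

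**Figure D1:**
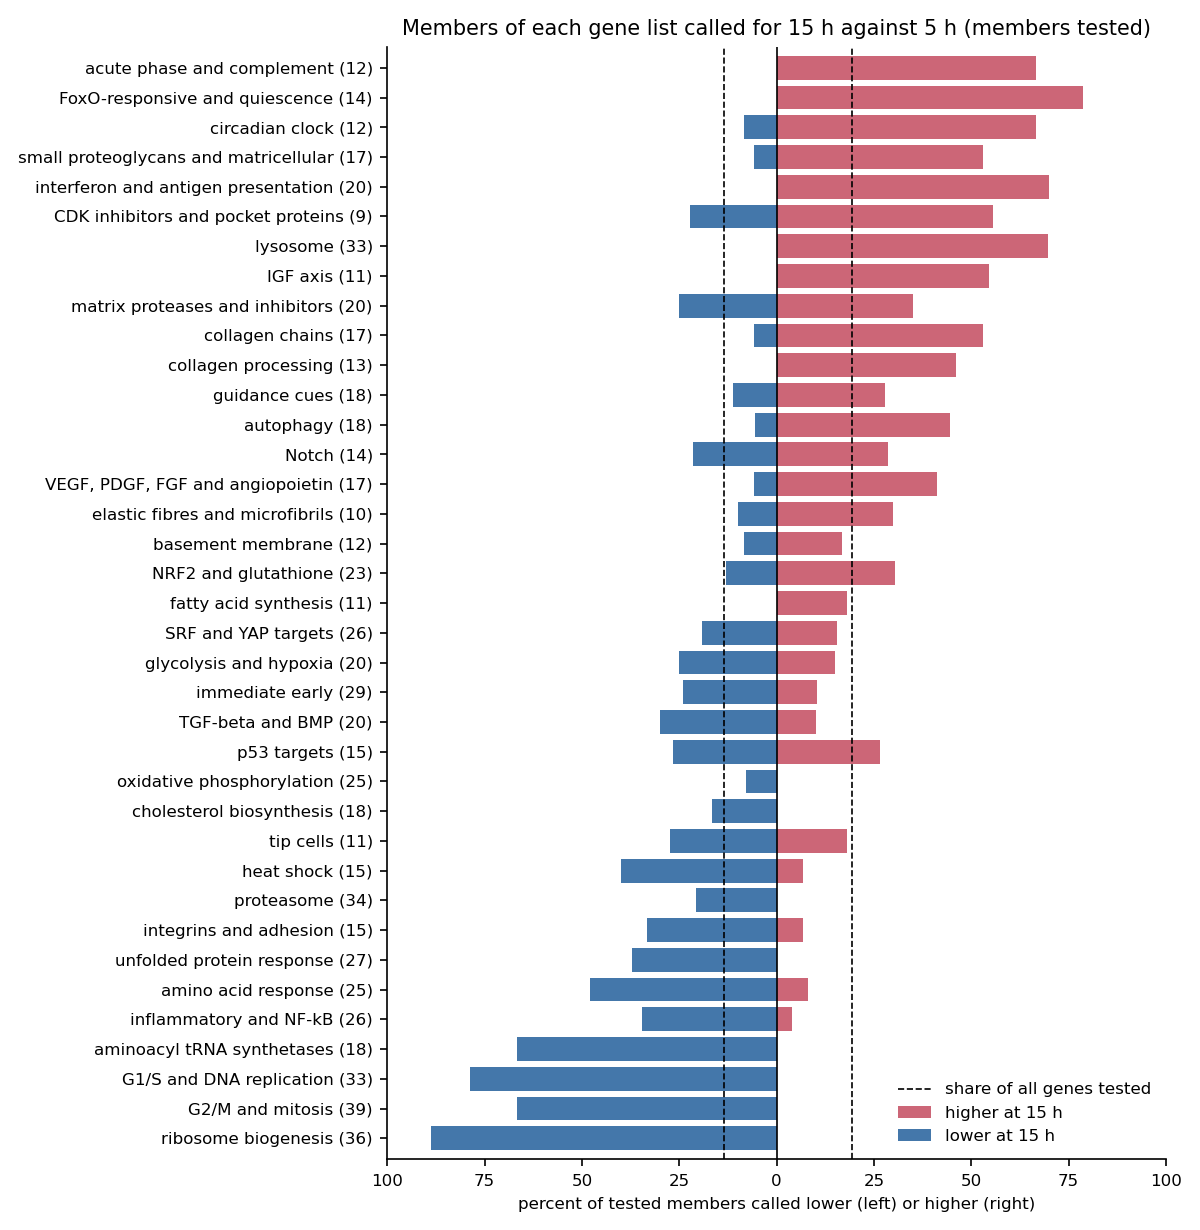
Percent of the tested members of 37 gene lists called lower (left) or higher (right) at 15 h against 5 h, with the number of members tested in brackets and dashed lines at the share of all genes tested (13.4% lower, 19.4% higher). Ribosome biogenesis, DNA replication, mitosis and tRNA synthetases stand furthest to the left, with no member called higher, and the acute phase, FoxO, interferon and lysosome lists to the right, with none called lower.

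Few markers of the labelled cell type were bright enough to test. Of 27 endothelial markers with a probe set, 5 were: Flt1 (on 1 probe set) and Ets1 were lower, and Cdh5, Cd34 and Gata2 were not past the test. The median log2 change of the 5 was -0.41. Pecam1, the CD31 junction protein, read 13.4, 47.6 and 13.3 at 5 h and 13.3, 11.3 and 13.5 at 15 h, and neither Tie1 nor Vwf passed 3 on any of the 6 arrays. Kdr, the main VEGF receptor of endothelium, lay between 89.8 and 169.6 and was also below the filter. The summed signal of the endothelial list was 3854 to 4679 at 5 h and 2975.5 to 3839 at 15 h. Of 14 fibroblast markers 12 were tested; the list's own sum was 55796 to 76674 at 5 h and 75678 to 109261 at 15 h, and since probe sets differ in brightness, sums of different lists say nothing of each other. Of those 12, 7 rose and none fell (median log2 change 0.58), among them the homeobox factor Prrx1 (1.95-fold), the receptor Pdgfra and the collagens of type I. Pdgfra, the type I collagens and Dcn are also members of lists further on. Without the replicate block 1 of the 12 was called higher, and Pdgfra and both type I collagens were not. Markers of leukocytes, epithelium and neurons were mostly below the filter (3 of 14, 2 of 15 and 0 of 11 tested), and of the 3 leukocyte markers Cd14, a co-receptor for bacterial lipopolysaccharide, rose 2.36-fold, Csf1r was lower (not without the replicate block) and Laptm5 was not past the test. In bulk RNA, fewer cells of a type and less RNA per cell cannot be told apart.

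Genes of DNA replication and mitosis were lower at 15 h. Of 33 replication genes, 26 fell and none rose (median log2 change -0.76), and of 39 genes of mitosis 26 fell and none rose (median -0.80). All 72 estimates lay below 0. Centring lowers every change, so it could only keep them there and is no check on these falls. With centred arrays 31 and 37 were called. Mcm3, a subunit of the helicase that opens replication origins, read 2110.4, 2068 and 1836 at 5 h and 829, 826 and 574 at 15 h. Its groups were far apart, and it fell 2.73-fold (log2 change -1.45 ± 0.15 SE, adjusted p = 4.14e-05). The other subunits Mcm2 and Mcm5 fell 1.82-fold and 2.07-fold, the clamp loader subunit Rfc5 2.19-fold and the licensing factor Cdt1 1.77-fold, although Cdt1 was not called without the replicate block. Aurka, the kinase of the spindle poles, went from 1619, 1502 and 1542 at 5 h to 649.9, 597 and 446 at 15 h, and fell 2.79-fold (log2 change -1.48 ± 0.17 SE, adjusted p = 7.67e-05). Its partner Tpx2 fell 2.63-fold, the mitotic kinase Plk1 2.09-fold and Cdc20, which activates the ligase that ends mitosis, 1.99-fold. Survivin (Birc5) fell 2.09-fold, from 2582, 2073 and 1441 at 5 h to 1296, 926 and 708 at 15 h; its ranges stood apart, but the call was lost without the replicate block. The counts depended on the pairing and on single arrays: without the block 8 replication and 16 mitosis genes were called lower, without the arrays numbered 1 these were 17 and 20, and without the array numbered 3 at 5 h or at 15 h 15 and 16 replication genes were.

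Many of the promoters of both lists share a short sequence motif, and 3 promoters from each list are shown to let its letters and place be seen. The windows are RefSeq's, 250 bases before to 50 after the start, on GRCm38.p6; only the 120 bases before the start are printed, 5′ to 3′ on the gene's strand, with the motif on either strand in capitals. They lie at chr1:128359706-128359825, minus strand, chr4:108579334-108579453, plus strand, chr5:151651209-151651328, minus strand, chr10:69352913-69353032, minus strand, chr4:118437344-118437463, minus strand and chr2:164769809-164769928, plus strand. A gene was counted where any of its windows held the motif. The E2F site was searched as TTTCCCGC, TTTCGCGC, TTTGCCGC or TTTGGCGC. Of the 30 replication genes with a window 12 held one, against 2.6% of all 27025 genes and 5.3% of the 6049 tested genes with a window. The cell cycle homology region (CHR), the letters TTTGAA, was in 25 of 32 mitosis genes with a window against 20.2% of all genes and 13.8% of tested genes. Among members called lower, 9 of 24 replication genes and 17 of 22 mitosis genes with a window held the motif. The lists gather genes of known function, so a share above the background says nothing of the change over time. Whether a motif goes with that change was not tested, here or further on. These are matches of letters and not measured binding, and the genes printed here and further on were picked after the matches and their values had been seen.
Mcm6: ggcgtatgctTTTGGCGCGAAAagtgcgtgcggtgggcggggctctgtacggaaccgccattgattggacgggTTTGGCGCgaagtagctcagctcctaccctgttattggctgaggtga
Orc1: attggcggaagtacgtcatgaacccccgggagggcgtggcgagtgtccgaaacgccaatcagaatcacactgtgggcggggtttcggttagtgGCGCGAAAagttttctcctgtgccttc
Rfc3: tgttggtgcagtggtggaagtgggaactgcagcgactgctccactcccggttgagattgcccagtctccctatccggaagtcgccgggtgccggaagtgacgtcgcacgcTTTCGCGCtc
Cdk1: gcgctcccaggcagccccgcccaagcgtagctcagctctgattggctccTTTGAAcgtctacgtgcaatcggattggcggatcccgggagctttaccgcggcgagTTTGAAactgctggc
Cdc20: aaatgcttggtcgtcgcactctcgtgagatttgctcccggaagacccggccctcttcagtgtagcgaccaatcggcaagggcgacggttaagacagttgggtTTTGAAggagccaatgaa
Ube2c: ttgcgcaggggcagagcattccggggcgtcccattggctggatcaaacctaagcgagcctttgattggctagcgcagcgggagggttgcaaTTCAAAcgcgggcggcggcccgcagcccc
The first run of capitals in Mcm6 is a pair of overlapping E2F sites on opposite strands, a second site follows nearer the start, and in Orc1 and Ube2c the match is on the other strand. Mcm6 fell 1.91-fold (1582, 1473 and 1934 at 5 h and 1153, 886 and 635 at 15 h), Orc1, a subunit of the origin recognition complex, 2.32-fold and Rfc3, of the clamp loader, 1.78-fold. Cdk1, the kinase that starts mitosis, fell 1.98-fold, and Ube2c, the ubiquitin carrier used by the Cdc20-driven ligase, fell 2.25-fold (3218, 3012 and 3186 at 5 h and 1865, 1250.1 and 1156 at 15 h). Of these 6, the calls of Mcm6, Orc1 and Rfc3 were lost without the replicate block, and that of Rfc3 also without the arrays numbered 1.

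The inhibitors of the cell cycle did not move as a group. Cdkn1a, the p21 inhibitor that p53 induces, had the largest fall among genes named by the rule for large changes. It read 4342, 2230.3 and 2674 at 5 h and 313, 407 and 206 at 15 h. All 15 h values lay far below the lowest 5 h value, and the gene fell 9.95-fold (log2 change -3.32 ± 0.42 SE, adjusted p = 0.000152). Of 9 inhibitors and pocket proteins tested, 5 rose: the p27 gene Cdkn1b (1.89-fold, not called without the block), Cdkn2b (1.67-fold), Cdkn2c (1.72-fold), the retinoblastoma gene Rb1 and its relative Rbl2. Rb1 was called neither without the block nor without the arrays numbered 1. Rbl2 went from 166, 263 and 284 at 5 h to 518, 515 and 553 at 15 h, a rise of 2.28-fold (adjusted p = 0.000560). Cdkn2d was the other of this list that fell, a call lost without the block. The p53 targets were also split, with 4 of 15 higher and 4 lower. Phlda3, an inhibitor of AKT, fell 3.04-fold from 3859.8, 3562 and 3847 at 5 h to 1189, 1219.6 and 1302 at 15 h, and the nuclease gene Aen 1.93-fold, while Sesn1 and Gadd45a rose 2.29-fold and 2.82-fold.

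**Figure D2:**
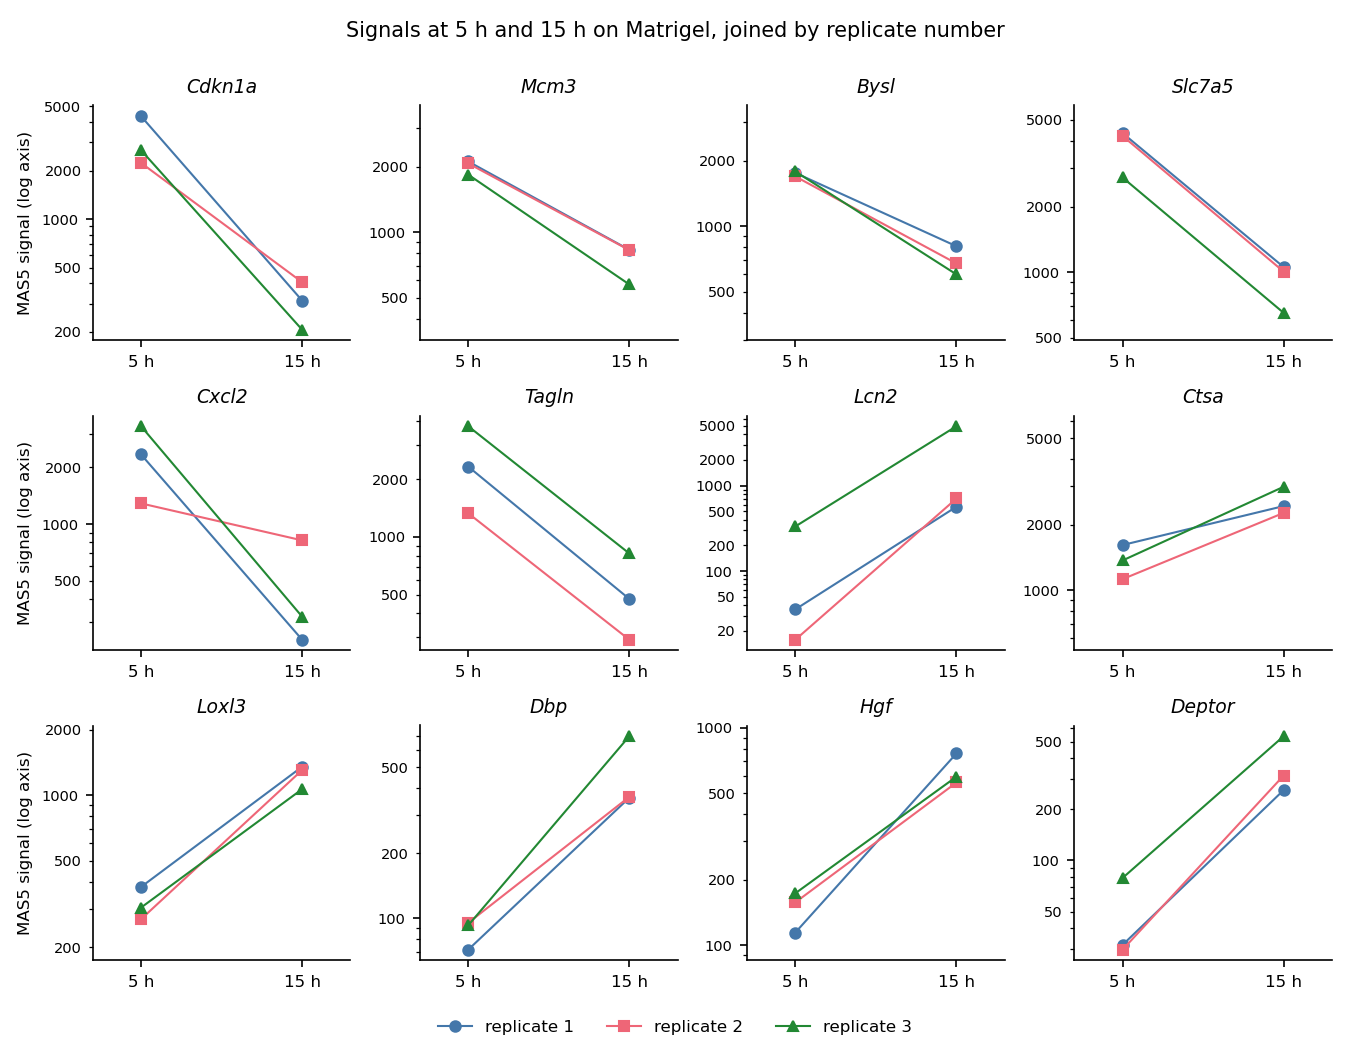
MAS5 signal of 12 genes at 5 h and 15 h (log axis), 1 line per replicate number. Every line of Cdkn1a, Mcm3, Bysl, Slc7a5, Cxcl2 and Tagln slopes down and every line of the other 6 slopes up; replicate 3 is highest at both times for Lcn2, Tagln and Deptor.

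Ribosome biogenesis, the making of ribosomes in the nucleolus, was the list with the highest share of calls: 32 of 36 genes fell and none rose (median log2 change -0.88). Without the replicate block 23 fell, and without the arrays numbered 1, 24. Bysl, needed for the small subunit, read 1756, 1691 and 1783 at 5 h and 808, 674 and 599.9 at 15 h and fell 2.53-fold (log2 change -1.34 ± 0.15 SE, adjusted p = 7.03e-05). Nolc1, a nucleolar scaffold, fell 2.44-fold, Ebna1bp2 2.49-fold and Tsr1 2.37-fold, and the ranges of each stood apart. The abundant nucleolin gene Ncl went from 9538, 7799 and 7635 at 5 h to 5038, 4823 and 4459 at 15 h, 1.74-fold lower. The E-box CACGTG, the core letters of the site that Myc binds, was in 6 of 31 of these genes with a window (19.4%). It was in 8.1% of all genes and 12.5% of tested genes.

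Of 18 aminoacyl tRNA synthetases, which load amino acids onto tRNAs, 12 were lower and none higher (median -0.57), although 4 were lower without the replicate block, 5 without the arrays numbered 1, and 7 without the 15 h array numbered 2 or 3. Yars, for tyrosine, fell 2.17-fold (1103, 1358 and 1334 at 5 h and 671, 537 and 539 at 15 h), Tars 1.82-fold and Gars 1.64-fold. Of 25 genes of the amino acid response, which the factor ATF4 drives when amino acids run short, 12 fell and 2 rose (median -0.45). Slc7a5, the LAT1 transporter of large neutral amino acids, read 4349.9, 4221 and 2719 at 5 h and 1054, 1004 and 649 at 15 h and fell 4.17-fold (log2 change -2.06 ± 0.13 SE, adjusted p = 1.5e-06). The mitochondrial folate enzymes Mthfd2 and Shmt2 fell 3.01-fold and 2.27-fold, and the serine synthesis gene Psat1 fell 2.03-fold. Phgdh, the first enzyme of that pathway, was 2.12-fold lower on its brightest probe set, but its 3 other probe sets were not called and the call was lost in the mean over probe sets. In the mean the log2 change of Phgdh was -0.39. Both rises were of Cebpb and of the glutamine transporter gene Slc38a2. Of the other transporter genes of the list, Slc1a5 was lower too, Slc7a11, Slc3a2 and Slc1a4 were not past the test, and Slc7a1 was below the filter.

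Of 27 genes of the unfolded protein response, 10 fell and none rose (median -0.39), against a median of 0.43 from 1 h to 5 h; the intervals share the 5 h arrays. Hspa5, the BiP chaperone, read 19654, 15707 and 11934 at 5 h and 9361, 6461 and 9847 at 15 h and fell 1.84-fold (log2 change -0.88 ± 0.17 SE, adjusted p = 0.00242). Manf fell 2.75-fold and Creld2 2.45-fold, from 3134, 3828 and 2315 at 5 h to 1178, 998 and 1609.9 at 15 h, with the arrays numbered 3 closest together. Herpud1, of the degradation machinery, fell 1.83-fold. Many folding genes of the list were not past the test, among them Hsp90b1, Pdia3, Pdia4, Pdia6, Calr, Canx, Hyou1 and P4hb. Without the 5 h array numbered 2, 6 of the list were lower and 1 higher. The endoplasmic reticulum stress element, CCAAT and CCACG with 9 bases between them, was in 8 of 23 genes with a window. It was in 0.1% of all genes and 0.2% of tested genes, and the promoter of Hspa5 (chr2:34771970-34772089, plus strand) is shown with the element in capitals.
Hspa5: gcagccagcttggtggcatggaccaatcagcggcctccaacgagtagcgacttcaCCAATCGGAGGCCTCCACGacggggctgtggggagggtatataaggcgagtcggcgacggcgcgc
Cytosolic heat shock genes were mixed, with 6 of 15 lower and 1 higher. The co-chaperone Dnajb1 fell 1.86-fold (its other probe set was not called) and the small heat shock protein Cryab 1.62-fold, whereas Hspa4l rose 1.88-fold from 1836, 2555 and 3317 at 5 h to 5483, 4114 and 4583 at 15 h, a call that was lost without the arrays numbered 1. Of 34 proteasome subunits 7 were lower (median -0.22), none was without the block, and leaving out single arrays moved that count between 1 and 9: it was 1 without the 15 h array numbered 2, and 2 without the 15 h array numbered 1 or either 5 h array numbered 1 or 2.

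**Figure D3:**
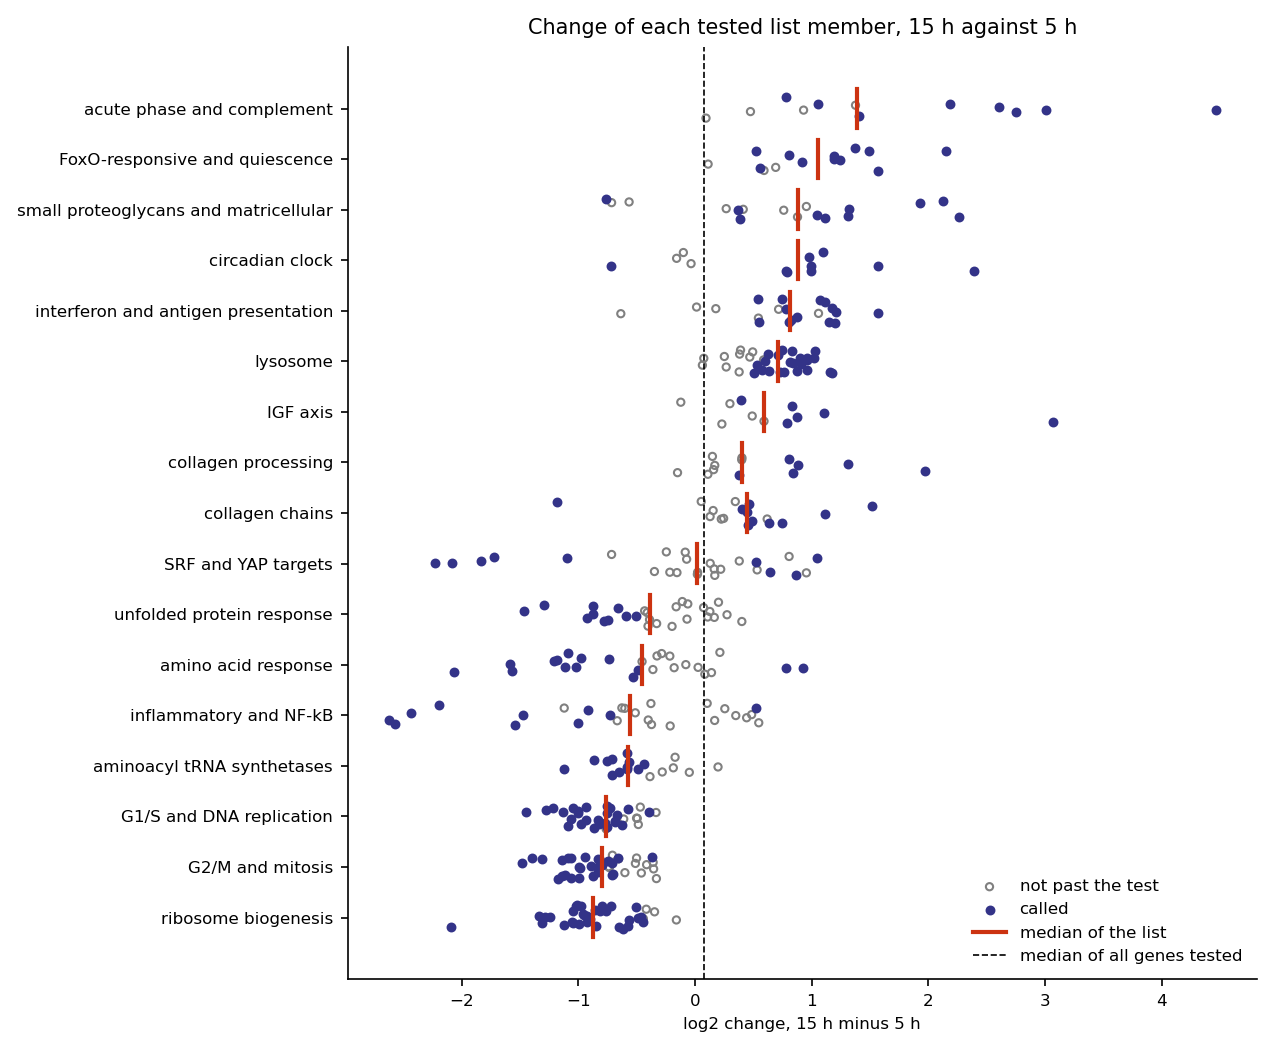
Log2 change from 5 h to 15 h of each tested member of 17 lists: filled points were called, open points were not, red bars are list medians and the dashed line is the median of all genes tested (0.07). All members of the replication, mitosis and ribosome biogenesis lists lie left of 0, whereas the SRF and YAP list holds 5 falls beside a median of 0.02.

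Lysosomal genes rose. Of 33 genes for lysosomal enzymes and membrane proteins, which break down material brought in by endocytosis and autophagy, 23 rose and none fell (median log2 change 0.71), and all 33 estimates were above 0. With centred arrays 14 were called higher (median 0.51) and without the replicate block 15. Tpp1, a peptidase, read 1308, 831 and 1111 at 5 h and 2773, 1767 and 2854 at 15 h and rose 2.26-fold (log2 change 1.18 ± 0.14 SE, adjusted p = 8.98e-05). The calcium channel gene Mcoln1 rose 2.23-fold from 329, 282 and 437 at 5 h to 802, 772 and 723 at 15 h, the cathepsin genes Ctsa and Ctsl 1.88-fold and 1.79-fold, and the sulfatase gene Arsa 1.95-fold. TCACGTGA, the core of the motif named CLEAR that the factor TFEB binds, was in 4 of 29 genes with a window. It was in 1.1% of all genes and 2.5% of tested genes. The promoters of Ctsa (chr2:164833653-164833772, plus strand) and Mcoln1 (chr8:3500399-3500518, plus strand) show how near the start it lay.
Ctsa: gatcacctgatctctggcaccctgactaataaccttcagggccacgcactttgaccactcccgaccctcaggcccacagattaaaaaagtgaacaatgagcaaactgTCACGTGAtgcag
Mcoln1: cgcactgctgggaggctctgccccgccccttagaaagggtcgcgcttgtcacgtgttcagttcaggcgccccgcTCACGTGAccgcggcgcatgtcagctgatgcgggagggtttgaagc
Autophagy genes rose in part, 8 of 18 with 1 lower (median 0.36). Nbr1, a receptor for cargo, rose 2.34-fold from 921, 1169 and 1016 at 5 h to 2617, 2225 and 2392 at 15 h, Wipi1, which marks the forming membrane, 2.38-fold, and the membrane-bound Map1lc3b and Gabarapl1 1.93-fold and 1.91-fold. Atg5 fell, a call that did not hold without the block or without the arrays numbered 1.

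The FoxO factors are active when insulin and growth factor signals are low. In a list of FoxO-responsive and quiescence genes, 11 of 14 rose and none fell (median 1.06). Several that rose, such as Cdkn1b, Rbl2, Sesn1, Gadd45a and Cat, are also members of other lists, so those lists are not separate results. Without the replicate block 8 rose, and with centred arrays 9. The factor genes Foxo1 and Foxo3, which are in the list, and Irs2 were not past the test. Pdk4, the kinase that turns glucose carbon away from the mitochondrion, read 123, 114 and 125 at 5 h and 324, 472 and 1017 at 15 h. Its 5 h arrays were close together, those at 15 h were spread with replicate 3 highest, and it rose 4.45-fold (log2 change 2.15 ± 0.26 SE, adjusted p = 0.000106). Sesn3, a brake on mTORC1, rose 2.96-fold, and catalase (Cat) rose 2.58-fold from 383, 523 and 386 at 5 h to 1216, 1135 and 961 at 15 h. The FoxO site GTAAACA was in 2 of 14 genes with a window (14.3%) against 4.1% of all genes and 3.2% of tested genes. Deptor, an inhibitor of mTOR that was in no list, was among the 15 largest rises: it read 31.8, 29.8 and 78.7 at 5 h and 259, 316 and 538 at 15 h, 8.38-fold higher, or 4.48-fold when 44.9, the 25th percentile of all signals, was added to each signal before the log to damp noise near the background. In the mean over its probe sets the log2 change was 2.39 in place of 3.07.

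Clock output genes rose as well. Of 12 tested, 8 were higher and 1 lower (median 0.88), with 4 higher without the block and 5 without the arrays numbered 2. Dbp, the output factor that the clock drives directly, read 71.6, 95.3 and 92.8 at 5 h and 362, 365 and 697 at 15 h and rose 5.26-fold (log2 change 2.40 ± 0.28 SE, adjusted p = 8.98e-05). Nfil3, which acts against Dbp, rose 2.96-fold, and the nuclear receptor genes Rora and Nr1d2 rose 2.14-fold and 1.73-fold, both of which were not called without the block. Clock itself fell 1.64-fold, with its other probe set not called. The D-box TTATGTAA was in 1 of 11 genes with a window against 1.1% of all genes and 0.6% of tested genes.

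Inflammatory genes fell in part while acute phase genes rose. Of 26 genes of the NF-kB group 9 fell and 1 rose (median -0.56); 5 fell without the replicate block and 4 without the arrays numbered 1. The neutrophil chemokine gene Cxcl2 read 2346, 1288 and 3314 at 5 h and 243, 819 and 322 at 15 h and fell 5.39-fold (adjusted p = 0.00106), and 9.34-fold without the 5 h array numbered 2. Lif, a cytokine of the interleukin 6 family, fell 5.92-fold from 5361, 1678 and 5399.5 at 5 h to 870.3, 1194 and 225 at 15 h, with replicate 2 low at 5 h and high at 15 h. The growth factor gene Csf3 fell 4.57-fold from 1981, 334 and 1775 at 5 h to 173, 279.7 and 254 at 15 h, again with replicate 2 low at 5 h. Leaving out the 5 h array numbered 2 gave falls of 10.1-fold for Lif and 8.0-fold for Csf3. The fall of Lif was 9.07-fold and 3.85-fold without the 15 h array numbered 2 or 3 and 3.59-fold without the 5 h array numbered 3, and neither gene was called without the arrays numbered 1. The adhesion molecule gene Vcam1 fell 2.78-fold from 1792, 923 and 4020.2 at 5 h to 534, 620.0 and 939.9 at 15 h, ranges that overlapped while every pair fell. Nfkb2 fell 2.00-fold, and lost its call without the block.

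In the acute phase and complement list, 8 of 12 genes rose and none fell (median 1.39), with 4 higher without the replicate block and 7 without the arrays numbered 1. Lcn2, lipocalin 2, which binds bacterial iron carriers, had the largest rise under the rule for large changes. It read 35.6, 15.7 and 333 at 5 h and 567, 707 and 4965 at 15 h. Replicate 3 was highest at both times and every pair rose; the fold was 22.0-fold (log2 change 4.46 ± 0.53 SE, adjusted p = 9.75e-05), 10.8-fold with the offset and 36.2-fold without the 5 h array numbered 3. Ceruloplasmin (Cp), a copper-carrying ferroxidase, rose 6.10-fold from 409.6, 684 and 1559 at 5 h to 3221, 3556 and 8654 at 15 h, and all 6 of its other probe sets were called higher. The metalloreductase gene Steap4 rose 8.07-fold from 105, 60 and 603 at 5 h to 771, 1045 and 2467 at 15 h, and the complement protease gene C1s1 4.55-fold, or 2.89-fold without the 5 h array numbered 2, a call lost without the block. C1qtnf1 rose 6.72-fold from 210.3, 11.4 and 60.6 at 5 h to 389.9, 253 and 446 at 15 h, or 3.48-fold with the offset; the size was 3.43-fold without the 5 h array numbered 2, the lowest, and 13.7-fold without the 5 h array numbered 1. Cebpb, a factor behind many acute phase genes, rose 1.72-fold and lost its call without the block.

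Of 20 genes of the interferon response and antigen presentation, 14 rose and none fell (median 0.82), but 2 did without the replicate block, 8 with centred arrays, 9 without the arrays numbered 1 or those numbered 2, 6 without those numbered 3 and 9 without the 15 h array numbered 3 alone. Ifit1, which binds foreign RNA, read 43.1, 83.8 and 283 at 5 h and 159, 181 and 928 at 15 h. Replicate 3 was highest at both times, the 5 h value of replicate 3 lay above the 15 h values of replicates 1 and 2, and each pair rose (2.97-fold, log2 change 1.57 ± 0.26 SE, adjusted p = 0.000827). Gbp2 and Irf9 rose 2.22-fold and 2.31-fold, again with replicate 3 highest at both times, and none of these 3 was called without the block. Tap2, of the peptide transporter, rose 2.11-fold from 197, 148 and 310.0 at 5 h to 439.5, 396 and 483 at 15 h and stood apart between the times. Ifitm6, of a family of interferon-induced membrane proteins, was in no list and rose 8.51-fold from 41.6, 75.9 and 66.0 at 5 h to 376, 458 and 747 at 15 h (5.25-fold with the offset). The core of the interferon-stimulated response element, GAAA and GAAA with 2 bases between them, was in 11 of 17 genes with a window. It was in 4.0% of all genes and 3.8% of tested genes, and the promoters of Ifit1 (chr19:34640769-34640888, plus strand) and Gbp2 (chr3:142620543-142620662, plus strand) are shown.
Ifit1: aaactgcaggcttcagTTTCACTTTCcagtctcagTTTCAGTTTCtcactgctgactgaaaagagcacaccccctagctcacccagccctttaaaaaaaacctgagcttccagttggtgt
Gbp2: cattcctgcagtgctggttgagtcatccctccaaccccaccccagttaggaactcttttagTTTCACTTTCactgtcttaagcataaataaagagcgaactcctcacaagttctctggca
In Ifit1 the element is there 2 times in 120 bases, and in Gbp2 1 time, each on the other strand.

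Genes for collagens, for the enzymes that process them and for small proteoglycans rose more often than they fell. Of 17 collagen chains 9 rose and 1 fell (median 0.45), but 2 rose without the replicate block, 3 with centred arrays, 4 without the arrays numbered 1 and 5 without those numbered 2. Col4a5, of basement membrane collagen, rose 2.87-fold from 454, 795 and 1589.8 at 5 h to 1692, 2599.5 and 3079 at 15 h, Col6a2, of the microfibrillar type VI, 1.68-fold from 5422, 4063 and 4013 at 5 h to 7535, 6975 and 7986 at 15 h, and Col1a1 1.40-fold. The enzymes that shape collagen rose in 6 of 13 cases with none lower (median 0.40). Loxl3 and Lox make the cross-links of collagen and elastin. Loxl3 read 378, 269 and 304 at 5 h and 1350.0, 1303 and 1065 at 15 h and rose 3.93-fold (log2 change 1.97 ± 0.16 SE, adjusted p = 7.37e-06), a call kept in all 25 alternatives to the fit, and Lox rose 2.48-fold from 4274, 5526 and 6991 at 5 h to 14741, 13843 and 12352 at 15 h. Bmp1, which trims procollagen, rose 1.79-fold and was not called without the block. The signals of Mfap5, of the microfibrils, were 507, 234 and 244 at 5 h and 356, 346 and 74.8 at 15 h, not past the test (adjusted p = 0.282), and Lum was below the filter.

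Small proteoglycans and matricellular proteins, which tune how cells meet matrix, rose in 9 of 17 cases with 1 lower (median 0.88; 3 higher without the block). Thbs2, a thrombospondin that restrains vessel growth, read 163, 149.6 and 335 at 5 h and 667, 853 and 1600.0 at 15 h and rose 4.81-fold (log2 change 2.27 ± 0.17 SE, adjusted p = 5.11e-06). Thbs3 rose 2.48-fold from 375, 390.2 and 413 at 5 h to 993, 902 and 1028 at 15 h, and the calcium-binding matrix gene Smoc1 2.49-fold. Decorin (Dcn) rose 3.8-fold from 697, 1261 and 2844 at 5 h to 3507, 3435 and 11412 at 15 h, with replicate 3 highest at both times, and lost its call without the block, as did the proteoglycan gene Vcan (2.16-fold).

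Proteases and adhesion receptors moved both ways. Of 20 matrix proteases and inhibitors, 7 rose and 5 fell, counts that dropped to 4 and 3 without the 15 h array numbered 2 and to 3 and 4 without the 5 h array numbered 2. Mmp11 rose 4.14-fold from 227, 193 and 156 at 5 h to 554, 650.1 and 1338 at 15 h. The urokinase gene Plau and that of its receptor Plaur fell 3.86-fold and 2.44-fold; Plaur read 1961, 1552 and 1557 at 5 h and 918, 668 and 533 at 15 h, and Plau fell 5.93-fold without the 5 h array numbered 2. Timp3, an inhibitor of metalloproteinases, fell 3.05-fold, and lost its call without the block. Of 15 integrins and adhesion molecules 5 fell and 1 rose. Cd44, the hyaluronan receptor, read 5555, 3245 and 3976 at 5 h and 999, 1283 and 628 at 15 h and fell 4.47-fold (log2 change -2.16 ± 0.21 SE, adjusted p = 3.82e-05). The fibronectin receptor subunit Itga5 fell 2.60-fold and the laminin receptor subunit Itga6 3.18-fold, whereas Itgb5 rose 2.19-fold from 2968, 1685 and 1817 at 5 h to 5393, 4751 and 3715 at 15 h. Of 12 basement membrane genes 2 rose and 1 fell.

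SRF and YAP are the nuclear arms that read actin tension, and of 26 of their targets 5 fell and 4 rose. The list median was 0.02 and turned below 0 under 6 alternatives, -0.18 with centred arrays; the 5 that fell were Tagln, Myl9, Cnn1, Acta2 and Actg2, while Tpm1, Tpm2 and Cnn2 were not past the test. In the pericyte and smooth muscle list, which shares Acta2, Tagln and Cnn1, 6 of 15 markers were tested: 4 fell and 1 rose (median -1.25), against 3 and 0 without the block. The other fall was of Cspg4 and the rise of Pdgfrb, Smtn was not past the test, and Myh11 was below the filter. Acta2, smooth muscle actin, read 3952, 3409 and 8764 at 5 h and 1209, 983 and 2779 at 15 h and fell 3.29-fold (log2 change -1.72 ± 0.14 SE, adjusted p = 5.94e-06). Tagln, which binds actin filaments, fell 4.68-fold from 2324, 1329 and 3771 at 5 h to 475, 292 and 819.8 at 15 h, and Cnn1, calponin, 3.56-fold. Myl9, the myosin light chain, fell 4.24-fold from 532, 617 and 2082 at 5 h to 144, 132 and 473 at 15 h. Replicate 3 was highest at both times for these 4 genes, and the calls of Myl9 and Actg2 were lost without the block. F3, tissue factor, rose 1.82-fold.

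Among immediate early genes, the first to answer growth factors, 7 of 29 fell and 3 rose, and the median was 0.01 against -0.75 from 1 h to 5 h; under 9 alternatives the middle median lay below 0. Without the 15 h array numbered 1 these counts were 4 and 0, without that numbered 3 they were 4 and 1, and without the 5 h array numbered 3 they were 3 and 3. Fosl1, an AP-1 subunit, fell 3.06-fold from 2016, 1354 and 1559 at 5 h to 469, 689.6 and 461 at 15 h (log2 change -1.61 ± 0.20 SE, adjusted p = 0.000143), and the EGF family ligand gene Hbegf 3.25-fold, with overlapping ranges and no call without the block. Fos, Egr1 and Jun were not past the test. In the TGF-beta and BMP list 6 of 20 fell and 2 rose, but 1 fell without the arrays numbered 1, and 3 fell without either array numbered 1 of 5 h or 15 h. Inhba, the activin subunit, fell 4.71-fold from 2167, 2419.5 and 5995 at 5 h to 399, 786 and 959.9 at 15 h and was not called without the arrays numbered 1. The co-receptor gene Tgfbr3 rose 3.70-fold from 163, 366 and 577 at 5 h to 1331, 1206 and 1081 at 15 h, and 2.45-fold without the 5 h array numbered 1. Tgfbi, a secreted matrix protein that TGF-beta induces, rose 2.49-fold and lost its call without the block.

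Among ligands and receptors of vessel growth more genes rose than fell, and 9 were not past the test. Of 17 genes of the VEGF, PDGF, FGF and angiopoietin families, 7 rose and 1 fell (median 0.34; 3 higher without the block, 4 without the arrays numbered 1). Hgf, a ligand for Met that drives motility, read 114, 157 and 173 at 5 h and 761, 559 and 595 at 15 h and rose 4.33-fold (log2 change 2.11 ± 0.26 SE, adjusted p = 0.000126). Vegfd rose 2.43-fold from 615, 416 and 900.3 at 5 h to 1494, 1484 and 1485 at 15 h, and Angptl4 1.90-fold (not called without the block), while Vegfa itself was not past the test. Flt1, the VEGF receptor that acts as a decoy, was 2.31-fold lower on 1 probe set (602, 375 and 645 at 5 h and 191, 258 and 239 at 15 h); its 2 other probe sets were not called, and the mean over all 3 was not either (log2 change -0.59).

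Dll4, the Notch ligand of tip cells, read 669, 402 and 199.5 at 5 h and 66.8, 55.2 and 28.7 at 15 h. The times stood well apart, and it fell 7.97-fold (log2 change -2.99 ± 0.56 SE, adjusted p = 0.00163), or 4.56-fold with the offset. Without the filter on low signals another probe set stood for the gene, and its log2 change was -1.71. Notch1, its receptor, fell 2.26-fold and the Notch target gene Hes1 2.54-fold, both lost without the arrays numbered 1, and 4 of the 14 Notch genes rose. Psen2, of the protease that frees the Notch intracellular domain, rose 2.00-fold, a call lost without the 15 h array numbered 3. Among 11 tip cell genes 3 fell and 2 rose, and the list median (-0.20) turned above 0 under 5 alternatives.

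Of 18 guidance cues, which steer both axons and sprouts, 5 were higher and 2 lower (2 higher without the 15 h array numbered 2). These counts are not far from the shares of all genes tested, 19.4% higher and 13.4% lower. Some single members changed severalfold, in both directions. The list median was 0.39, but -0.25 with a filter at the 75th percentile of signals. Sema7a, a membrane-anchored semaphorin that binds integrins, read 3573, 1062 and 1739 at 5 h and 490.2, 301 and 167 at 15 h and fell 6.45-fold (log2 change -2.69 ± 0.29 SE, adjusted p = 5.91e-05). Efnb1 fell 2.00-fold. Sema5a rose from 55.9, 2.3 and 13.0 at 5 h to 223, 433 and 195 at 15 h: the 22.4-fold rise became 4.81-fold with the offset, and without the 5 h array numbered 1 or 2 it was 51.8-fold or 7.83-fold. Slit2 rose 2.19-fold, a call lost without the 15 h array numbered 2 or the 5 h array numbered 1.

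In the IGF axis 6 of 11 genes rose and none fell (median 0.59), but 1 did without the replicate block and 3 without the arrays numbered 1 or without the 15 h array numbered 1 alone. Igfbp5, which binds IGFs in the matrix, read 53.1, 87.8 and 2190.3 at 5 h and 565, 872 and 12129.8 at 15 h. Every pair rose (8.36-fold, log2 change 3.06 ± 0.42 SE, adjusted p = 0.000229), yet the 5 h array numbered 3 lay above 2 of the 15 h arrays, and the call was lost without the block. Igfbp4 rose 1.73-fold from 12046, 6801 and 7539 at 5 h to 18653, 12207 and 14044 at 15 h, and was not called without the block either.

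Metabolic lists moved little as groups. Of 20 genes of glycolysis and hypoxia 3 rose and 5 fell (median 0.02, below 0 under 7 alternatives and 0.00 under quantile normalization), and leaving out single arrays took the falls to between 1 and 5, 1 without the array numbered 1 of 5 h or 15 h, 2 without the 15 h array numbered 2 or 3, and 3 without the 5 h array numbered 3 or any 1 h array. Pfkfb3, which makes the activator of phosphofructokinase, stood out: it read 71.7, 89.5 and 172 at 5 h and 445, 652 and 945 at 15 h and rose 6.29-fold (log2 change 2.65 ± 0.25 SE, adjusted p = 2.34e-05). Of 25 subunits of oxidative phosphorylation 2 fell (median -0.14), among them cytochrome c (Cycs), and of 18 cholesterol genes 3 fell. Scd1, which puts the double bond into fatty acids, rose 2.14-fold from 1461, 1870.2 and 2767 at 5 h to 3627, 4032 and 5092 at 15 h, but its other probe set was not called. In the NRF2 and glutathione list 7 of 23 rose and 3 fell, with opposite directions among enzymes of redox defence. Nqo1, a quinone reductase, rose 2.16-fold from 494, 976 and 1013 at 5 h to 1497, 1444 and 2258 at 15 h, and Gstm1, a glutathione transferase, 2.32-fold. Srxn1, which repairs peroxiredoxins, fell 2.48-fold from 2875, 1874 and 4273 at 5 h to 1240.0, 1018 and 1198 at 15 h.

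Outside the lists, the largest rises included Xdh, xanthine dehydrogenase, which makes uric acid and rose from 39.2, 22.7 and 63.0 at 5 h to 303, 379 and 464 at 15 h, 9.82-fold or 4.96-fold with the offset. Aox1, aldehyde oxidase, an enzyme of the same molybdenum family, rose 7.87-fold from 45.0, 56.9 and 87.1 at 5 h to 327, 317 and 1046 at 15 h (4.96-fold with the offset). Wnt16, a Wnt ligand, read 7.9, 9.0 and 145 at 5 h and 114, 179 and 1597 at 15 h, with replicate 3 far above the others at both times. Its rise was 14.7-fold, or 4.76-fold with the offset, and the call was lost without the block. The phosphatase gene Ptpn13 rose 5.95-fold from 114, 104 and 199 at 5 h to 696, 677 and 1054 at 15 h, the vitamin D receptor gene Vdr 6.13-fold, and Kank3 7.97-fold (5.29-fold with the offset) from 88.8, 62.6 and 61.1 at 5 h to 740.0, 945 and 246 at 15 h. The largest falls outside the lists were of the kinase gene Stk10, 5.70-fold from 332, 215 and 419 at 5 h to 70.3, 49.6 and 46.3 at 15 h (3.58-fold with the offset), of Rgs16, which switches G proteins off, 4.86-fold from 1963, 713 and 1440.4 at 5 h to 266, 349 and 189 at 15 h, and of Kcnip1, 4.06-fold from 691, 703 and 847 at 5 h to 233, 227 and 116 at 15 h, although 1 of the 2 other probe sets of Kcnip1 was not called and the mean over its probe sets gave a log2 change of -0.89 in place of -2.02. Of the 30 largest changes, 4 lost their call without the replicate block and 3 without the arrays numbered 1, 29 without both the block and the arrays numbered 1, and none with centred arrays.

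**Figure D4:**
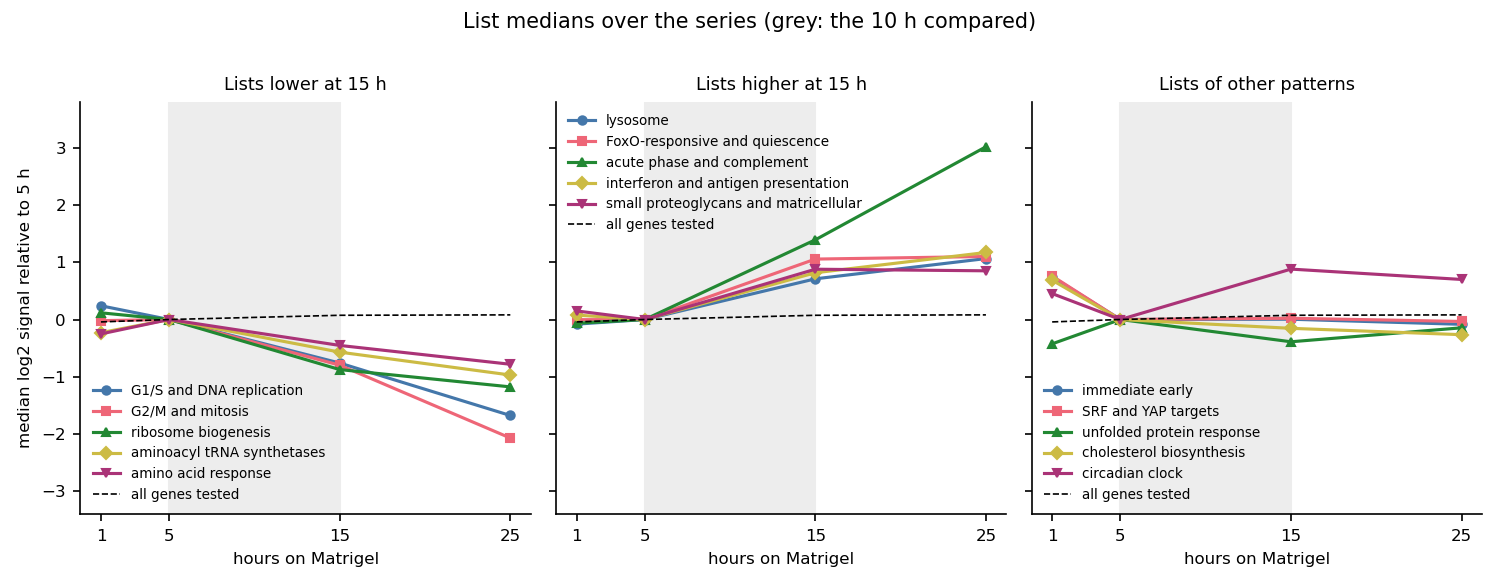
Median log2 signal of gene lists at 1, 5, 15 and 25 h relative to 5 h, with all genes tested as a dashed line and the compared interval in grey. From 5 h to 15 h the replication and mitosis medians went to -0.76 and -0.80, that of the acute phase list to 1.39, and the immediate early and SRF and YAP medians stayed at 0.01 and 0.02 after a fall before 5 h.

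To see which changes differed from those of the next interval, the change from 5 h to 15 h was set against that from 15 h to 25 h. Both intervals last 10 h. The change from 1 h to 5 h was not part of this test, so a gene called by it may have begun to change before 5 h. The contrasts share the 15 h arrays, and the difference between them was tested in the same fit. It was called for 74 of 7379 genes (1.00%), 56 with a difference above 0 and 18 below, and 71 of the 74 were also called from 5 h to 15 h. At an unadjusted p under 0.05 there were 1183. This test rests on the pairing and on single arrays: 0 genes were called without the replicate block (limma, 556 at an unadjusted p under 0.05), 17 with centred arrays, 1 without either array numbered 1 or 3 of 15 h, 12 without the 15 h array numbered 2, 39 without the 5 h array numbered 1, 9 and 31 without the 25 h arrays numbered 2 and 1, and 27 without the 1 h array numbered 1.

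The strongest difference was that of Myl9, which fell 4.24-fold from 5 h to 15 h and then stood 2.38-fold higher at 25 h than at 15 h. Its log2 difference between intervals was -3.34 ± 0.33 SE, adjusted p = 0.00100. Cnn1 gave -3.45 ± 0.44 SE, adjusted p = 0.00535, with means of 1891, 1036, 257 and 761 at 1, 5, 15 and 25 h. Acta2 gave -1.74 ± 0.23 SE, adjusted p = 0.00641; its means at those times were 8189, 5375, 1657 and 1671, nearly the same at 15 h and 25 h. Cd44 gave -1.77 ± 0.37 SE, adjusted p = 0.0477, from means of 3560.3, 4259, 969.8 and 723. The transferrin receptor gene Tfrc, which brings iron into cells, had means of 3017, 3074, 962 and 835 and a difference of -1.47 ± 0.22 SE, adjusted p = 0.0129. Nfatc4, a calcineurin-driven transcription factor, rose 5.77-fold from 292, 299 and 208 at 5 h to 1526, 1646 and 1388 at 15 h and was 1.19-fold higher again at 25 h (2.28 ± 0.27 SE, adjusted p = 0.00413), and Deptor gave 2.78 ± 0.36 SE, adjusted p = 0.00586. Deptor had means of 222, 46.8, 371 and 456: it had fallen 4.83-fold from 1 h to 5 h (adjusted p = 7.33e-05), so its rise by 15 h started from a 5 h low. Some genes had their highest mean at 15 h: Nqo1 had means of 464, 827, 1733 and 1068 (1.78 ± 0.34 SE, adjusted p = 0.0363), Col6a2 3485, 4499, 7499 and 5811 (1.12 ± 0.22 SE, adjusted p = 0.0363) and Hspa4l 3476, 2569, 4727 and 2620.2 (1.75 ± 0.33 SE, adjusted p = 0.0358). Mcm3, Plk1, Bysl and Ctsa were not called by this test (adjusted p = 0.887, 0.294, 0.149 and 0.742). Over the last 10 h the medians of the replication and mitosis lists were -1.02 and -1.21, beside -0.76 and -0.80 over the middle 10 h. Nfatc4 and Tfrc, and the members Cdkn2d, Rb1, Slc38a2, Atg5, Actg2, Vegfa, Fos, Egr1 and Jun named above, with the members of the lists named as not past the test or below the filter and Slc1a5, were chosen after their values had been seen.

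**Figure D5:**
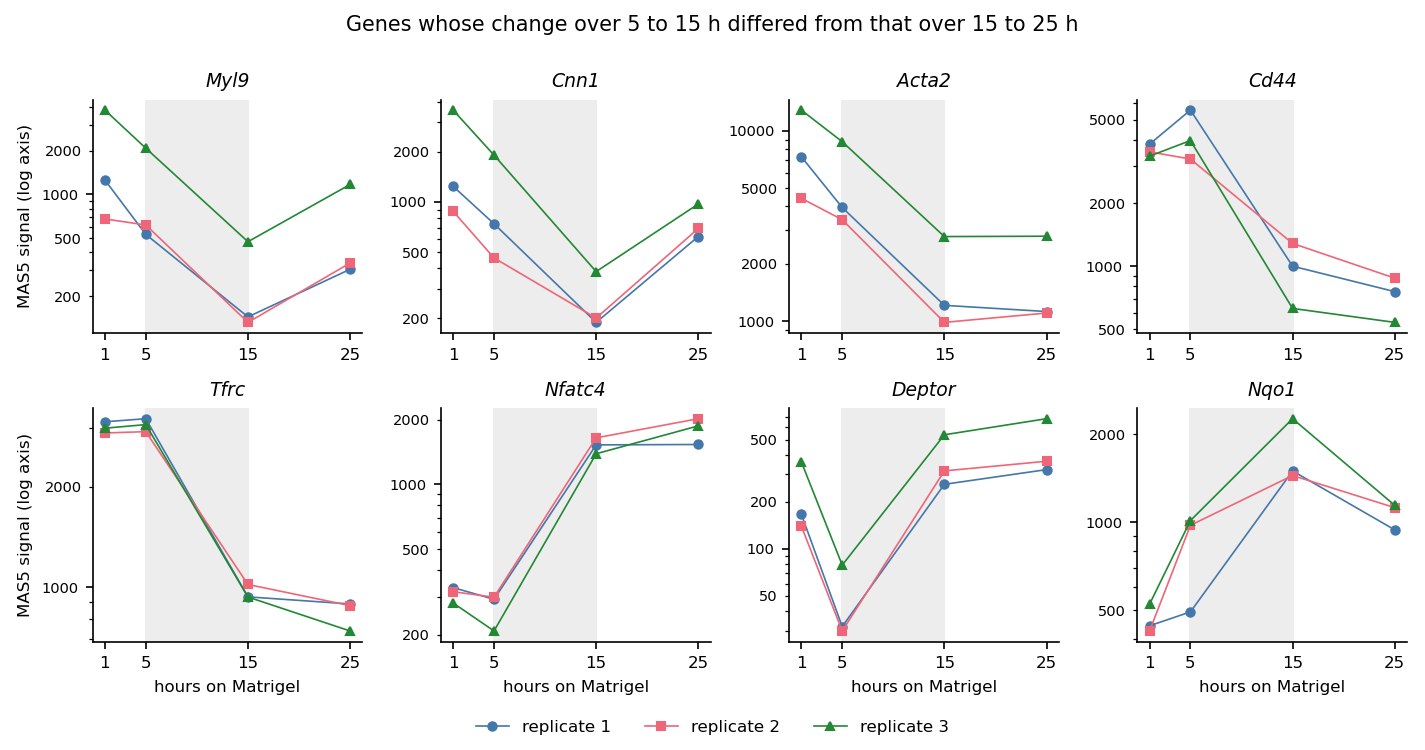
MAS5 signal (log axis) of 8 genes at 1, 5, 15 and 25 h, 1 line per replicate number, with the compared interval in grey; all 8 differed between the intervals from 5 h to 15 h and from 15 h to 25 h at an adjusted p under 0.05. Myl9 and Cnn1 turn up after 15 h, Tfrc and Nfatc4 have nearly level means on either side of the grey interval, Deptor falls from 1 h to 5 h before it rises, and Nqo1 peaks at 15 h.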

How the data were processed

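The deposited table holds, per array, MAS5 signal intensities on a linear scale, which the authors computed with MAS5, per the submitters' processing notes. The software version is not stated in any source used here, and no detection calls were used. Signals ran from 0.1 to 37764.1. Of 22690 probe sets, 64 controls and 1 with an empty value were left out; 20379 had 1 gene symbol in the platform annotation, 691 several and 1555 none, and 20350 matched RefSeq's table by Entrez ID. Genes were represented by their brightest probe set. Log2 signals were fitted in limma 3.58.1 (R 4.3.3) with time and replicate number, over all 12 arrays (6 residual degrees of freedom), with a trended prior. The fit was run on simulated data, which held no replicate effect and so could not check the block. The replicate number was kept as a block because deviations from the time means correlated between equally numbered 5 h and 15 h arrays (r = 0.483, 0.336 and 0.537). For other pairs r lay between -0.487 and -0.014. Deviations from a time mean cancel for each gene, so the negative values are tied to the positive ones and add no separate support.

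The genes named were the 15 largest rises and 15 largest falls among called genes whose 3 pairs moved one way and whose brighter time averaged above 60% of all signals. To these were added the 5 members of each list, at most, with the smallest p, and Cdkn1a, Col6a2, Mcm3, Prrx1, Mfap5 and Lum. The members and lists were chosen with earlier results of these data known. Alternatives changed the filter, probe set rule, offset, scaling, trend and block, or left out arrays.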

Additional observations from a re-analysis of the deposited data

How the results depend on the processing

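The calls rest on 3 pairs. Against 1429 genes higher, 986 lower and 74 differing between the intervals, the fit without the replicate block called 644, 424 and 0 (1372, 947 and 556 at an unadjusted p under 0.05 in limma). Without the block and without the arrays numbered 1 it called 3, 0 and 0 (1026, 648 and 298 unadjusted). With the block, leaving out all arrays numbered 1 gave 838, 501 and 1, those numbered 2 gave 808, 589 and 10, and those numbered 3 gave 977, 645 and 12. Without single arrays the counts were 908 to 1465 higher, 641 to 1055 lower and 1 to 100 differing. Median centring gave 747, 1585 and 17. A filter at the 75th percentile of signals left 878 higher, no filter left 17 differing between the intervals, and no trend 27. Some of these fits used fewer genes or arrays, and the cause of the moves was not tested. Of 189 named genes called, 187 lost the call without the block and the arrays numbered 1, and 89 under at least 1 of the remaining alternatives, among them the 68 lost without the block; 0 turned direction. No value for the difference between intervals could be had from the 5 h and 15 h arrays alone.

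Of 41 list medians, 7 turned sign under at least 1 alternative, and not all of them were near 0. That of guidance cues went from 0.39 to -0.25 with the filter at the 75th percentile. That of fatty acid synthesis went from 0.19 to -0.02 centred. That of the leukocyte markers was -0.06 centred, -0.08 with quantile normalization, -0.01 and -0.14 without the 15 h array or all arrays numbered 2, and -0.04 and -0.07 without the 5 h array numbered 1 or 2. The SRF and YAP median was -0.01 with the mean over probe sets, -0.18 centred, -0.06 and -0.10 without the 15 h array numbered 1 or 2, -0.08 without the 5 h array numbered 2 and -0.17 without all numbered 2.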
